A study of Mus musculus with 2 samples.

Results

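Upstream peaks are the Sox4 pull-down sites that lay beyond the promoter of the gene they were assigned to. They were chosen as the peaks that the deposited list places in its upstream class, and this held for 471 of 8730 peaks (5.40%, exact 95% interval 4.93 to 5.89%). The series has 1 library of DNA pulled down with tagged Sox4 and 1 library of input chromatin, from progenitor B cells of C57BL/6 embryonic fetal liver. Both samples came from cells that had received retroviruses for BirA, then p190 Bcr-Abl and then SE-Cre, and last for BAP-Sox4. The cells were sorted after each step. Whether they still carried every construct at the time of the pull-down was not tested here. BirA is a biotin ligase and BAP the peptide tag that it biotinylates, which allowed capture on streptavidin beads. The tagged Sox4 was supplied by retrovirus, the number of clones or cultures is not stated, and no pull-down without the tag was analysed here. Values of the input library were not used here. With 1 library there is no replicate check and no test between conditions, and whether the labelled cell type shows its marker genes could not be checked from a list of peaks.

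Sox4 is a transcription factor of the SRY-related HMG-box family that binds the minor groove of DNA and bends it, and it is needed for early B-cell development. Transcription factors bind at gene starts and also at enhancers, which act on a gene from a distance and often lie before it or in its introns. An enhancer need not act on the nearest gene, so the gene named for an upstream peak is the gene with the closest annotated start (transcription start site, TSS) and not a known target.

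The deposited positions are in the mm9 build, for which no genome sequence was used here, so the peaks are given by position and not by sequence. Of the 374 protein-coding genes closest to an upstream peak, 293 (78.3%) had a promoter sequence in the RefSeq table, which is under the 80% set for a comparison over the genes, so a comparison of their base composition is void. As examples, the 250 bases before the start are shown for the 4 genes with the highest-scoring upstream peaks among those with a single promoter in that table. They are from RefSeq (GRCm38.p6, all on the plus strand), in lower case with CG dinucleotides in capitals, since CG content separates the main types of promoter. Dgkd and Ptma also had a peak over their own start, while E230029C05Rik and Bok had none within 5 kb of theirs.
Dgkd, chr1:87853037-87853286: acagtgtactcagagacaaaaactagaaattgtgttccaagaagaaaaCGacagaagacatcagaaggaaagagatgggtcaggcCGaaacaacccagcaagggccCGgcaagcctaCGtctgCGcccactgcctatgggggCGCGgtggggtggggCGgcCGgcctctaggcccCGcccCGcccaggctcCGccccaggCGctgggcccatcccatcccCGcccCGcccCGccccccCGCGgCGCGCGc
Ptma, chr1:86526307-86526556: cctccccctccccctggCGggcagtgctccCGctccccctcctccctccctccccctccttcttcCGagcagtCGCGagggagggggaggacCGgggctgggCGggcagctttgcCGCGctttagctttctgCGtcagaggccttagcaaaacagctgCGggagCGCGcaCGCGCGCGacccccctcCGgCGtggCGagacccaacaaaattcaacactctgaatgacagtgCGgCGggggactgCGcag
E230029C05Rik, chr7:90028909-90029158: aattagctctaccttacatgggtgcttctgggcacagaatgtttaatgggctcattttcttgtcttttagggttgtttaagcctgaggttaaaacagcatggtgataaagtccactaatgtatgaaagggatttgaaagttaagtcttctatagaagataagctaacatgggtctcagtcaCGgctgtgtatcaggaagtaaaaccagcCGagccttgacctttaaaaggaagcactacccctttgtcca
Bok, chr1:93685325-93685574: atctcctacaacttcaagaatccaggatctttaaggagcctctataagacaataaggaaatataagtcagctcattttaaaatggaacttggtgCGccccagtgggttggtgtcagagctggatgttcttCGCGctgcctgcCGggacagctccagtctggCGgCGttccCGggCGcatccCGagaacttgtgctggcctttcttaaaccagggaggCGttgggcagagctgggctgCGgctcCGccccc
The Dgkd window holds 21 CG dinucleotides, the Ptma window 23, the Bok window 12 and the E230029C05Rik window 2. No order by start peak is read from them: Gm14207, without a start peak, has 23, and Nup160, with one, has 5. Over all 32851 such windows of the table the median was 6 (quartiles 2 and 16).

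MicroRNA genes were the closest genes of 17 upstream peaks, and their products are shown for the 6 loci that the microRNA results turn on. MicroRNAs are short RNAs that silence messenger RNAs through their seed, bases 2 to 8, which is in capitals in these mature sequences from RefSeq (GRCm38.p6).
mmu-let-7a-5p: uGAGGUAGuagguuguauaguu
mmu-let-7f-5p: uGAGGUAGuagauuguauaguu
mmu-let-7d-5p: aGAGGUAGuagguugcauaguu
mmu-miR-15a-5p: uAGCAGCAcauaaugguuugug
mmu-miR-16-5p: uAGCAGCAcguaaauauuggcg
mmu-miR-200b-3p: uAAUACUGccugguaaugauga
mmu-miR-429-3p: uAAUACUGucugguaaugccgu
mmu-miR-200a-3p: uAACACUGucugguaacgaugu
mmu-miR-34a-5p: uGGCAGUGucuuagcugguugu
mmu-miR-23a-3p: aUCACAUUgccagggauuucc
mmu-miR-27a-3p: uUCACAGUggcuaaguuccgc
mmu-miR-24-3p: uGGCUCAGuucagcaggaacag
mmu-miR-142a-3p: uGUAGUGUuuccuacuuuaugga
The 3 let-7 products share the seed GAGGUAG, miR-15a and miR-16 share AGCAGCA, and miR-200b and miR-429 share AAUACUG.

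Fewer upstream peaks were listed at larger distances from the closest start. The class ran from 5030 to 24986 bp before the start, with a median of 11293 bp (quartiles 7669 and 16872.5 bp). By 5 kb steps, 194 peaks (41.2%, 36.7 to 45.8%) lay 5 to 10 kb before the start, 118 (25.1%) lay 10 to 15 kb before it, 97 (20.6%) lay 15 to 20 kb before it and 62 (13.2%, 10.2 to 16.6%) lay 20 to 25 kb before it. The bounds follow from how the list was annotated: a peak nearer than 5 kb was called a promoter peak, and a gene was listed only within 25 kb. The distance is to the closest start, so a site far from one gene can be assigned to another. Whether the decline differs from that of randomly placed sites was not tested. Just inside the near bound stood a peak 5030 bp before Pcdhgc3, a protocadherin gene (41 tags, fold 4.16, score 59.3), and one 5069 bp before Pgf, which encodes placental growth factor (69 tags, fold 4.44, score 86.0). Just outside it, the farthest promoter peak lay 4938 bp before its start. At the far bound stood a peak 24986 bp before Rcbtb2 (51 tags, fold 5.70). Peaks farther out have no distance in the list.

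**Figure D1:**
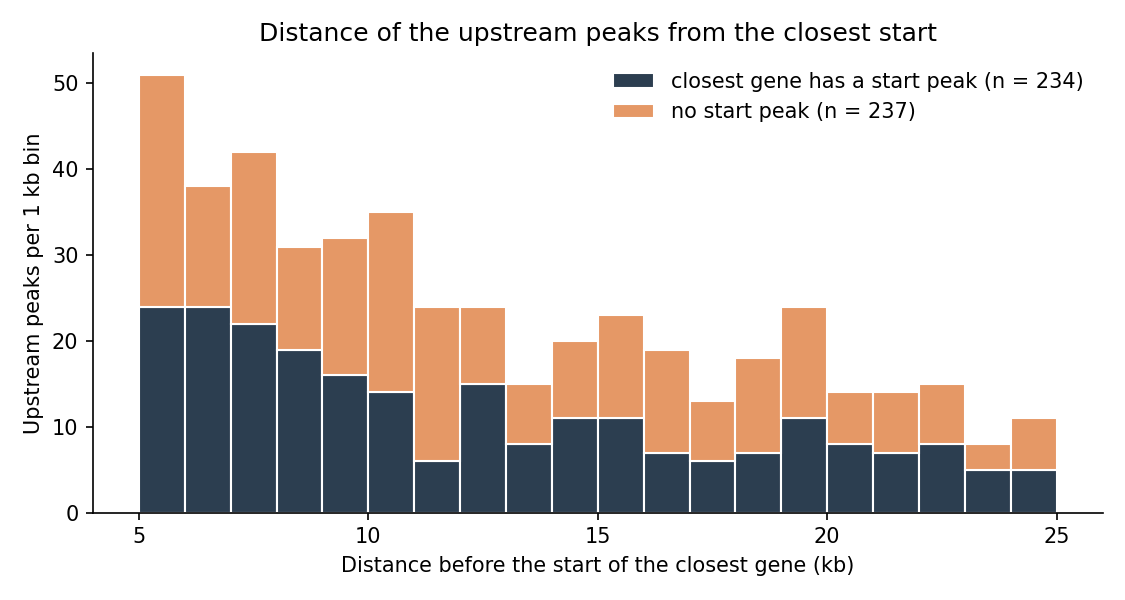
Number of upstream peaks in 1 kb bins of distance before the closest annotated start (kb), with dark bars for peaks whose closest gene also has a peak within 5 kb of a start (234) and light bars for the others (237). Both kinds are most numerous in the 5 to 10 kb range and run out to 25 kb.

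In median tags and score, upstream peaks were close to intronic peaks and to peaks without a listed gene, and they had fewer tags than promoter peaks. A fold of 5 or more was less frequent upstream (28.9%, 24.8 to 33.2%) than where no gene was listed (38.0%, 33.7 to 42.5%). Tags are the reads counted in a peak, fold is tags over the background that the peak caller expected, and the score is minus 10 log10 of the caller's p-value. All 3 are the authors' own values for each peak. Upstream peaks held 25 to 333 tags with a median of 59 (quartiles 47 and 78). The median was also 59 in introns and where no gene was listed, and it was 77 at promoters. Their median width was 802 bp, against 980 bp for promoter peaks, and per kb of peak the medians were 71.6 and 77.6 tags. The scores ran from 50.1 to 1854, and 176 of 471 reached 100 (37.4%, 33.0 to 41.9%). The folds ran from 2.45 to 32.3, with quartiles of 3.67 and 5.18 around the class median. In the upper tail the 90th percentile was 6.70 upstream, 7.15 at promoters, 7.40 in introns and 7.96 where no gene was listed. It was 7.21 downstream, 6.625 at gene ends and 6.13 in exons. Folds of at least 10 were seen at 20 of 471 upstream peaks (4.25%, 2.61 to 6.48%), near the 4.39% of all peaks of the list. Among the 100 highest-ranked peaks of the whole list, 4 were upstream peaks when ranked by score and 8 when ranked by fold. The class made up 5.40% of the list.

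**Figure D2:**
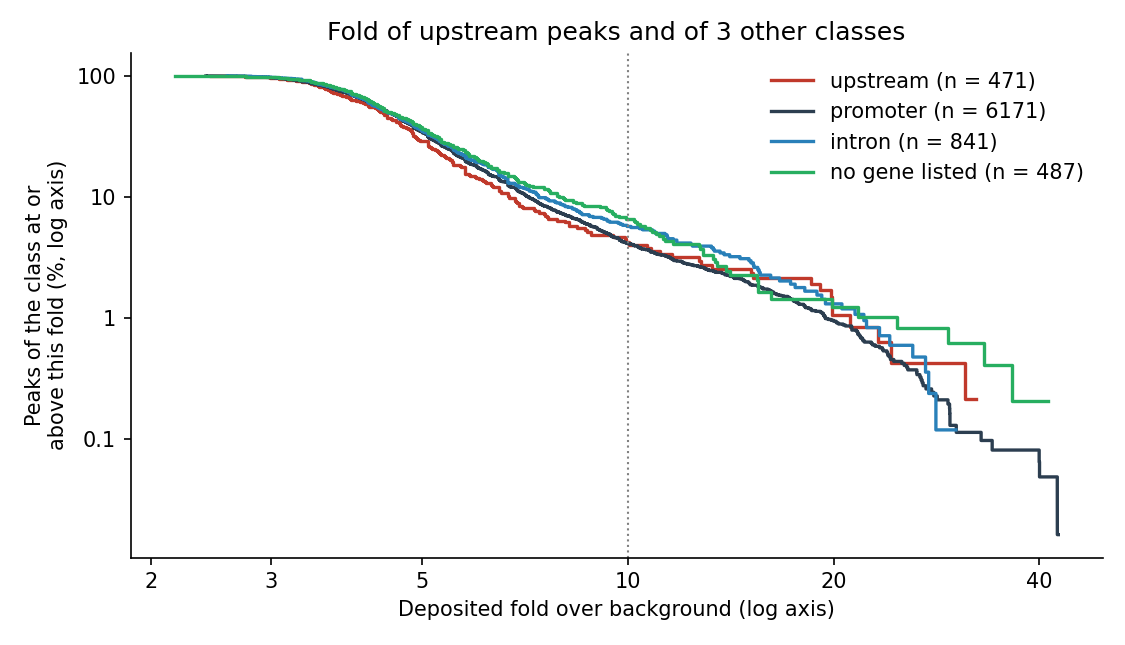
Share of peaks (%, log axis) at or above each deposited fold (log axis) for upstream, promoter and intronic peaks and for peaks with no gene listed, with the dotted line at a fold of 10. At a fold of 5 the upstream curve stands at 28.9%, below promoter (34.6%) and intronic peaks (35.3%) and peaks with no gene (38.0%), and at a fold of 10 it stands at 4.25%. Classes not drawn had 28.4% (downstream), 27.5% (gene ends) and 21.8% (exons) at a fold of 5.

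The strongest upstream signal stood before Ptma, which encodes prothymosin alpha, an acidic nuclear protein of dividing cells. One peak lay 16612 bp before its start on chromosome 1 from 88405658 to 88406699 (mm9), and held 289 tags (exact Poisson 95% interval 257 to 324). Its score was 1819 and its fold 32.3. The second, 21872 bp before the start (88399617 to 88401439), held 333 tags (298 to 371), with a score of 1495 and a fold of 24.3. They were 4219 bp apart, no other gene was listed for either, and the start of Ptma was itself covered by a peak of 690 tags (639 to 743) at a fold of 32.9. By fold, the nearer of the pair ranked first among upstream peaks and 11 of 8730 in the list.

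The highest score upstream was 1854, at a peak 22784 bp before Dgkd, which encodes the delta form of diacylglycerol kinase, an enzyme of lipid signalling (chromosome 1, 89726070 to 89727078; 276 tags, 244 to 311; fold 31.2). This peak lay inside another gene, Sag, which encodes the arrestin of the retina, 25816 bp past its start. A further peak, annotated to an exon of Sag, stood 714 bp away. A second upstream peak of Dgkd lay 5647 bp before its start with 82 tags at a fold of 4.83, and the Dgkd start carried 80 tags (63.4 to 99.6) at a fold of 3.74. The distal peak thus had a fold 8.34 times that of the start peak, the highest such ratio among the genes with both.

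Other high upstream peaks stood before genes of varied function. The peak 5273 bp before the long noncoding RNA gene E230029C05Rik had 259 tags (228 to 293) at a fold of 23.3. Nov, which encodes the secreted matrix protein CCN3, had a peak 9032 bp before its start with 177 tags (152 to 205; fold 21.1), and the nearest other peak of the list lay 352938 bp away. Bok, a pro-apoptotic member of the BCL2 family, had one 16224 bp before its start with 173 tags (148 to 201) at a fold of 19.9, with the nearest other peak 84700 bp away. Bok, Nov and E230029C05Rik had no peak within 5 kb of their own starts.

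At 4 more genes a strong distal peak was accompanied by a start peak of lower fold. Chmp6, which encodes a subunit of the ESCRT-III membrane scission complex, had a peak 17043 bp upstream with 210 tags (183 to 240; fold 19.9) and a start peak with 58 tags (44 to 75; fold 4.04). That distal peak lay inside Rptor, the gene of the mTORC1 subunit raptor, 2824 bp before its end. Tyrobp, which encodes the adaptor DAP12 of myeloid and natural killer cells, had 192 tags (166 to 221) at a fold of 19.1 upstream and 47 (34.5 to 62.5) at a fold of 3.87 near its start. Zdhhc20, a palmitoyltransferase gene, had 159 tags (135 to 186; fold 19.8) upstream and 122 (101 to 146; fold 3.93) over its start. Bcar3, which encodes an adaptor of adhesion signalling, had 198 tags (171 to 228) at a fold of 18.6 upstream and 91 (73.3 to 112) at a fold of 4.85 over its start. In Chmp6, Tyrobp and Bcar3 the tag intervals of the paired peaks do not overlap, and in Zdhhc20 they do.

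Further peaks among the 20 upstream peaks of fold 10 or more included the following. Whsc1, which encodes the histone methyltransferase NSD2, had 260 tags (229 to 294) 21304 bp upstream at a fold of 10.7. Tmpo, which encodes the lamina-associated polypeptide 2 proteins, had 130 tags (109 to 154) 15969 bp upstream at a fold of 12.8. Elf2, an ETS-family transcription factor gene, had 2 upstream peaks, 1 with 117 tags at a fold of 11.2 and a broader one with 308 tags at a fold of 6.35. Others of this group stood before Ip6k2 (fold 15.2), Cidea (15.1), 1700094M24Rik (13.3), Slc43a3 (12.7), Gm14207 (11.6) and A830052D11Rik (10.04). In all, 12 of the 20 lay 15 kb or more from the start (60%, 36.1 to 80.9%). Of the whole class, 20.6% lay 15 to 20 kb before the start and 13.2% lay 20 to 25 kb before it. By distance, folds of 10 or more were seen at 5 of 194 peaks at 5 to 10 kb (2.58%, 0.842 to 5.91%) and 3 of 118 at 10 to 15 kb (2.54%). They were seen at 7 of 97 at 15 to 20 kb (7.22%, 2.95 to 14.3%) and 5 of 62 at 20 to 25 kb (8.06%, 2.67 to 17.8%). These intervals overlap.

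Most upstream peaks had no other peak within 10 kb, though their median gap to the nearest one was shorter than that of the whole list. The median gap to the nearest other peak of any class was 15603 bp, against 31780 bp over all peaks of the list. Within 25 kb, 66.7% of upstream peaks had another peak (62.2 to 70.9%), against 44.1% of all peaks. Another peak lay within 10 kb in 178 of 471 cases (37.8%, 33.4 to 42.3%), against 25.8% of all peaks of the list. For promoter peaks the share within 10 kb was 22.1% (21.1 to 23.2%) and for intronic peaks 37.8% (34.5 to 41.2%). It was higher for exonic peaks (42.8%) and peaks at gene ends (42.2%). Within 5 kb, 73 upstream peaks had another peak (15.5%, 12.3 to 19.1%), near the 16.5% of all peaks and below the 29.3% of intronic peaks (26.2 to 32.5%). The nearest peak was a promoter peak in 295 cases (62.6%, 58.1 to 67.0%), while promoter peaks made up 70.7% of the list. It was another upstream peak in 98 (20.8%, 17.2 to 24.8%), while upstream peaks made up 5.40% of the list. In 32 cases it was within 1 kb, close enough that the pair may be parts of 1 enriched stretch, which was not tested. At the other end, 41 peaks (8.70%, 6.32 to 11.6%) had no other peak within 100 kb. Of these 41, 1 had a fold of 10 or more (Nov) and 1 had a start peak at the closest gene.

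Of the 424 closest genes, 44 (10.4%, 7.64 to 13.7%) had more than 1 upstream peak, and 3 of them, Grhpr, Arhgap25 and Pgf, had 3 each. Grhpr, which encodes glyoxylate reductase, had peaks 17509, 13620 and 10726 bp before its start, with 202, 47 and 81 tags at folds of 7.64, 4.18 and 4.64, and no start peak. Pgf had peaks 5069, 15129 and 18374 bp before its start, with 69, 80 and 47 tags at folds of 4.44, 2.75 and 3.22, and also no start peak. Arhgap25, which encodes a GTPase-activating protein of blood cells, has transcripts with different starts in the list. The 3 peaks lay 5849 and 7367 bp before one start, inside the longer transcript, and 7755 bp before the other, with 88, 47 and 44 tags at folds of 6.05, 4.07 and 4.37. A peak of 48 tags covered a start of Arhgap25.

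Many upstream peaks could also be placed by a second gene. No other gene was listed for 212 of the 471 (45%, 40.5 to 49.6%). Inside another gene lay 88 peaks (18.7%, 15.3 to 22.5%), and 24 (5.10%) lay inside a longer transcript of the closest gene itself. Upstream of 2 or more genes lay 98 (20.8%). Peaks inside another gene had a median fold of 4.13 and those inside no gene one of 4.39, and folds of at least 10 were seen at 4 of 88 (4.55%, 1.25 to 11.2%) and 16 of 360 (4.44%, 2.56 to 7.12%).

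Genes with an upstream peak had a peak at their start more often than protein-coding genes in general. A start peak is any peak interval within 5 kb of the start of any transcript of the gene. Of the 374 protein-coding genes closest to an upstream peak, 199 had one (53.2%, 48.0 to 58.4%), against 32.8% of the 20953 protein-coding genes. Read the other way, 2.89% of the genes with a start peak were closest to an upstream peak and 1.24% of those without. Classes of peak away from starts were also compared per peak, over closest genes of every type. The closest gene had a start peak in 49.7% of upstream cases (45.1 to 54.3%) and 48.0% of downstream cases (41.9 to 54.1%). It had one in 69.0% of intronic cases (65.7 to 72.1%) and 68.8% of exonic cases (63.0 to 74.1%). The 32.8% is a share of protein-coding genes and not a background for these shares. Of the 50 closest genes that code for no protein, 11 had a start peak (22.0%, 11.5 to 36.0%). The shares depend on which peaks are counted, at both places alike. With only peaks of score 100 or more, 45 of 151 closest protein-coding genes had a start peak (29.8%, 22.6 to 37.8%), against 19.8% of all protein-coding genes. With only peaks of fold 5 or more it was 24 of 118 (20.3%, 13.5 to 28.7%), against 11.9%. Expression was not analysed here.

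The strength of an upstream peak differed little with the presence of a start peak. The 234 upstream peaks of genes with a start peak had a median of 59 tags and a median fold of 4.39, and the 237 of genes without one had 60 tags and a fold of 4.32. Folds of at least 10 were seen at 10 peaks of each kind (4.27% and 4.22%). The median gap to the nearest peak of any class was 8854 bp with a start peak and 35803 bp without, as the start peak itself can be that neighbour.

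In the 210 genes with both kinds, the start peak usually held more tags, while the folds were close. Each gene entered with its highest-scoring upstream peak and its highest-scoring start peak. The median was 59 tags upstream and 86.5 at the start, and the upstream tag interval lay below that of the start in 95 genes, above it in 14 and overlapped it in 101. The median fold was 4.39 upstream and 4.62 at the start, with a median log2 ratio of -0.08 (quartiles -0.40 and 0.27, range -2.57 to 3.06). The upstream peak had the higher fold in 87 of 210 genes (41.4%, 34.7 to 48.4%). The 5 genes in which the upstream score most exceeded the start score were Dgkd, Chmp6, Tyrobp, Bcar3 and Zdhhc20.

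The strongest pairs, by the lower of both scores, included those at Ptma, Slc38a2, Tcf12 and Mtss1. Slc38a2, an amino acid transporter gene, had 167 tags (143 to 194) at a fold of 4.96 at 9380 bp upstream and 263 (232 to 297) at a fold of 6.67 over the start. Mtss1, which encodes a membrane-bending protein, had 126 tags (105 to 150) at a fold of 7.62 at 7155 bp upstream and 149 (126 to 175) at a fold of 3.70 over the start. The start outweighed the upstream peak at Malat1, an abundant nuclear RNA gene (41 tags at a fold of 4.17 upstream, 335 at a fold of 20.8 over the start), and at the beta-actin gene Actb (37 tags at a fold of 3.35, and 233 at 13.7). These last 2 were chosen after their values were seen.

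**Figure D3:**
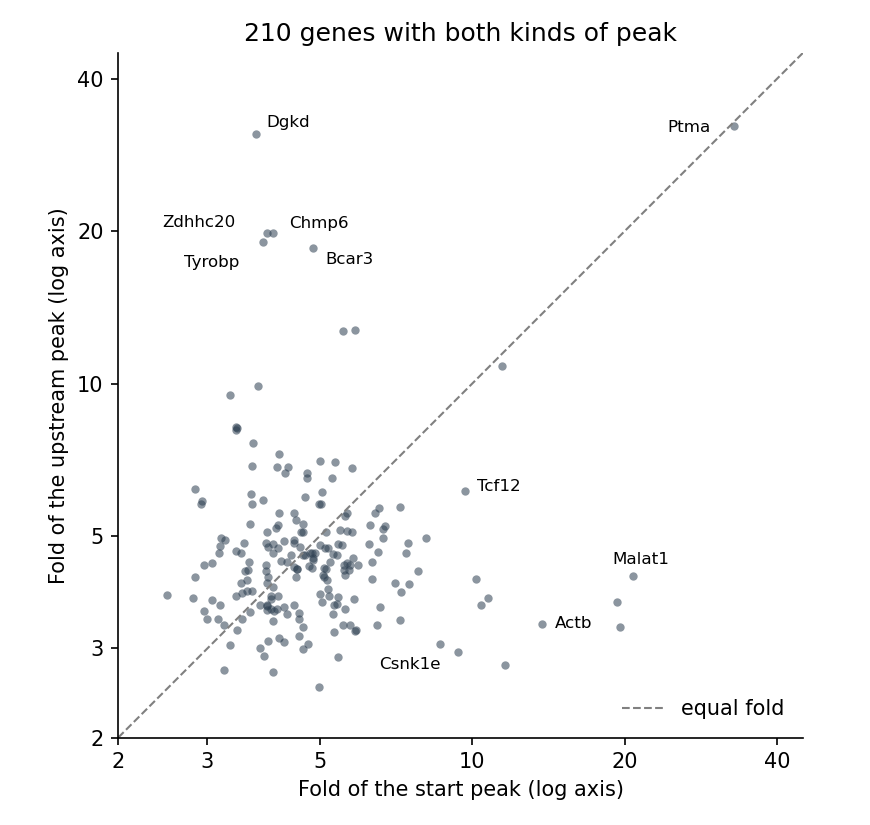
Fold of the upstream peak against fold of the start peak (both on log axes) for the 210 genes with both, each gene a point, with the dashed line at equal fold. The points scatter on both sides of the line around medians of 4.62 (start) and 4.39 (upstream), Dgkd, Chmp6, Tyrobp, Zdhhc20 and Bcar3 stand above it, Malat1 and Actb below it, and Ptma has 32.9 at the start and 32.3 upstream.

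Among 12 gene lists, immediate early genes were the most often closest to an upstream peak. Across all 20953 protein-coding genes the share was 1.78%, or 2.22% when any listed gene with the peak before its start was counted, which adds only Spi1 and Bbc3 to the list members given here. The lists are small, were chosen with earlier results of these data known, and their intervals overlap one another. Immediate early genes are switched on within minutes of a signal, without new protein synthesis, and 6 of the 29 listed were closest to an upstream peak (20.7%, 7.99 to 39.7%): Nr4a3, Egr3, Dusp2, Fosb, Nr4a1 and Btg1. Nr4a3, an orphan nuclear receptor gene, had 2 such peaks 542 bp apart, at 7479 bp with 108 tags (88.6 to 130; fold 5.78, score 279) and at 6060 bp with 55 tags (41.4 to 71.6; fold 3.44). Egr3, a zinc finger transcription factor gene, had 107 tags (87.7 to 129) 19707 bp upstream at a fold of 4.86, inside the neighbouring gene Pebp4, and 60 tags 10511 bp upstream at a fold of 3.81. The phosphatase gene Dusp2 had 59 tags 21194 bp upstream at a fold of 4.63. The AP-1 gene Fosb had 50 tags 6217 bp upstream at a fold of 4.15. By score, Dusp2, Fosb, Btg1 and Nr4a1 ranked only 241, 283, 363 and 366 among the 471 upstream peaks. A score of 100 was reached by 176 upstream peaks, so these did not reach it. The median score for the list was 73.95, against 85.53 for all upstream peaks. Dusp2 and Btg1 also had start peaks, and Nr4a3, Egr3, Fosb and Nr4a1 had none, although 19 of the 29 genes of the list had one.

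B-lineage genes were represented by 3 of 28 transcription factor genes (10.7%, 2.27 to 28.2%) and 3 of 25 pre-BCR, surface and signalling genes (12.0%, 2.55 to 31.2%). Tcf12, which encodes the E protein HEB, had 124 tags (103 to 148; fold 6.13) 20812 bp upstream and 246 (216 to 279; fold 9.68) over its start. Irf4 and Irf8 encode interferon regulatory factors that act in light chain rearrangement and B-cell maturation. They had peaks 20526 and 10561 bp upstream, with 76 and 54 tags at folds of 3.53 and 3.88, and neither had a start peak. Ptprc, which encodes the leukocyte antigen CD45, had 89 tags (71.5 to 110) 16107 bp upstream at a fold of 4.44 and no start peak. Vpreb2, of the surrogate light chain, had 66 tags (51.0 to 84.0) 10691 bp upstream at a fold of 4.85. Vpreb2 has a near-identical copy, and reads that fit both were handled in a way not given in the sources used here. Cd74, the invariant chain gene, had the fewest tags of the class, 25 (16.2 to 36.9), 10436 bp upstream at a fold of 5.09.

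Of 25 cytokine and chemokine receptor and signalling genes, 3 were closest to an upstream peak (12.0%, 2.55 to 31.2%), among them Cxcr4 and Socs3, and all 3 also had a start peak. Cxcr4, the receptor that holds B-cell progenitors in the marrow, had 73 tags 15492 bp upstream at a fold of 4.10 and 93 near its start at 5.18. The feedback inhibitor gene Socs3 had 44 tags 6564 bp upstream at a fold of 3.75 and 186 over its start at 5.85. At Cxcr4 the tag intervals of the upstream and start peaks overlap, and at Socs3 they do not.

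The remaining lists held few members or none. Of 38 Wnt and beta-catenin genes, the casein kinase gene Csnk1e (70 tags, fold 2.95, 7147 bp upstream) and the receptor gene Fzd9 (74 tags, fold 3.08, 12931 bp) were closest to an upstream peak. Of 20 blood progenitor and leukaemia factors it was Lmo2, which encodes a bridging protein of blood transcription complexes (103 tags, fold 3.90, 11890 bp), and of 18 T-lineage genes Notch1 (55 tags, fold 3.09, 9404 bp). None of the 24 cell cycle and survival genes (0%, up to 14.2%), 20 SOX genes (up to 16.8%), 14 myeloid, 14 erythroid (1 of them not matched to the gene table) and 14 hepatocyte genes (each up to 23.2%) was the closest gene of one, although 21 of the 24 cell cycle and survival genes had a start peak. Genes of a list are not replicates, and the intervals give counting error only.

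**Figure D4:**
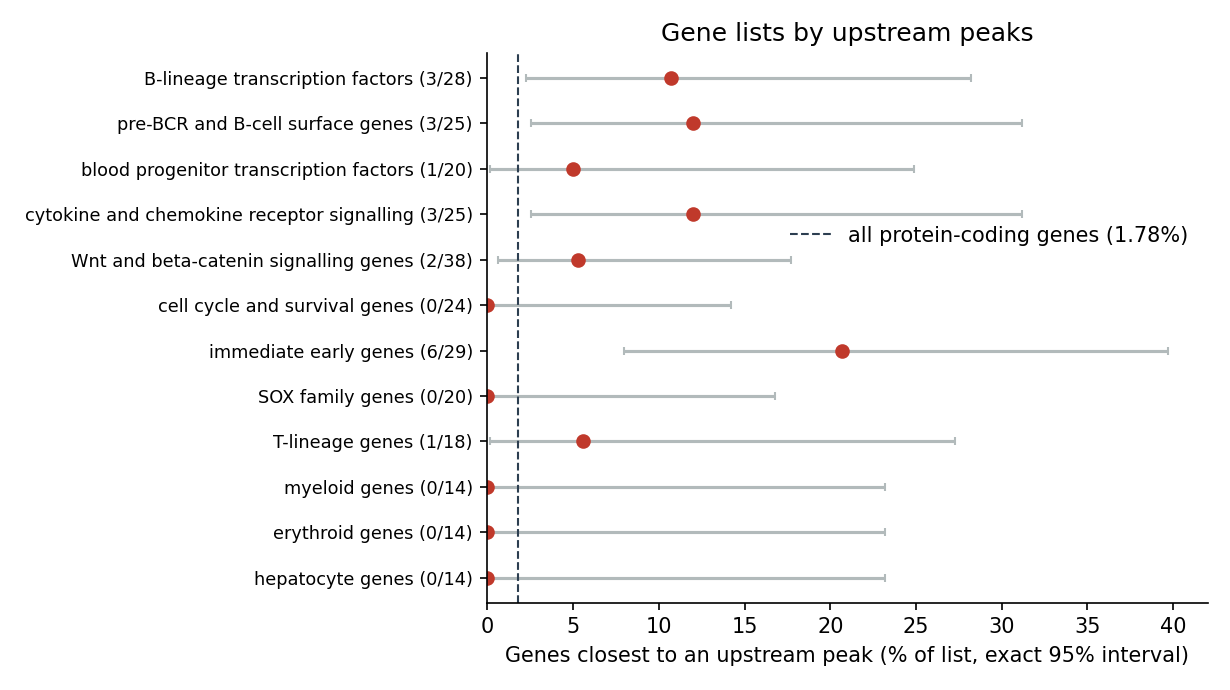
Share of each gene list that was the closest gene of an upstream peak (%, points, with exact 95% intervals), with the numbers of genes beside the list names and the dashed line at 1.78%, the share of all protein-coding genes. Immediate early genes stand at 20.7% and 5 lists stand at 0.

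MicroRNA and long noncoding RNA genes made up a larger share of the closest genes upstream than at promoters, and about the same share as downstream. Of the 471 peaks, 17 (3.61%, 2.12 to 5.72%) were closest to a microRNA gene, against 36 of 6171 promoter peaks (0.583%, 0.409 to 0.807%), and 36 (7.64%, 5.41 to 10.4%) were closest to a long noncoding RNA gene, against 240 (3.89%, 3.42 to 4.40%). Downstream peaks had 4.06% (2.04 to 7.15%) and 8.86% (5.76 to 12.9%). Intronic peaks had 3.57% (2.42 to 5.05%) for long noncoding RNA genes. A hairpin has no introns, so no microRNA share is given for intronic peaks. The start that the list uses for a microRNA is that of its hairpin, whereas microRNAs are cut from primary transcripts that can begin many kb before it. The distances here are therefore to the hairpin and not to the start of the primary transcript. The 17 peaks belonged to 14 microRNA genes, which is 1.14% of the 1228 microRNA genes of the gene table (2.61% with every listed hairpin counted). For protein-coding genes the same shares were 1.78% and 2.22%. The 17 peaks had a median fold of 4.16. Among them, 6 lay inside another gene.

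The highest-scoring microRNA peak, at 277, lay 7104 bp before the let-7a-1 hairpin, 7459 bp before let-7f-1 and 9262 bp before let-7d, the 3 clustered genes whose products share the seed GAGGUAG (chromosome 13, 48640744 to 48642262; 124 tags, 103 to 148; fold 4.62). The nearest other peak of the list lay 322959 bp from it. The let-7 family restrains growth genes and marks the switch from fetal to adult lymphocyte development. Mir34a, a target gene of p53, had 96 tags (77.8 to 117) 7898 bp before its hairpin at a fold of 7.57, the highest fold among the 17 peaks (chromosome 4, 149433774 to 149434665). Mir15a and Mir16-1, which share the seed AGCAGCA and repress BCL2, had 97 tags (78.7 to 118) 15800 and 15938 bp before their hairpins at a fold of 4.89 (chromosome 14, 62266746 to 62268072), inside the host gene Dleu2. Mir200b, Mir200a and Mir429, which hold epithelial identity, had 98 tags (79.6 to 119) 14229, 14994 and 15992 bp before their hairpins at a fold of 4.57 (chromosome 4, 155444087 to 155445319).

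Weaker pairs of peaks lay before microRNAs of blood cells. The cluster of Mir23a, Mir27a and Mir24-2, which acts in the choice between B and myeloid fates, had peaks 9696 and 7298 bp before the Mir23a hairpin with 40 (28.6 to 54.5) and 57 tags (43.2 to 73.9) at folds of 4.16 and 4.85. Mir142, which is specific to blood cells, had peaks 7795 and 6807 bp before its hairpin with 39 (27.7 to 53.3) and 59 tags (44.9 to 76.1) at folds of 4.12 and 4.96. The tag intervals overlap within each pair. A much stronger peak, with 193 tags (167 to 222) at a fold of 10.2, lay 970 bp from the Mir142 hairpin, whereas Mir23a, Mirlet7a-1, Mir34a, Mir15a and Mir200b had none within 5 kb.

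**Figure D5:**
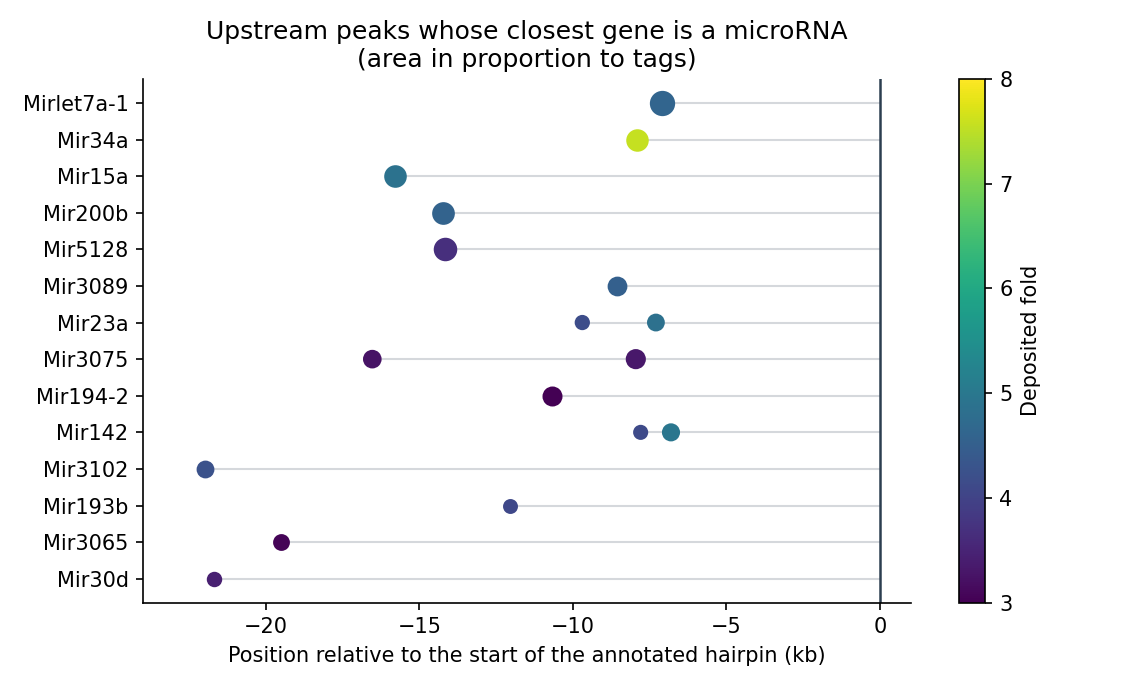
Position of the 17 upstream peaks closest to a microRNA gene relative to the annotated hairpin start (kb, line at 0), with 1 row for each of the 14 genes ordered by score, point area in proportion to tags and colour for the deposited fold. The let-7a-1, Mir34a, Mir23a and Mir142 peaks lie 6.8 to 9.7 kb before the hairpin, and Mir34a has the highest fold, 7.57.

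Among the 36 peaks closest to long noncoding RNA genes, 4 had a fold of 10 or more (11.1%, 3.11 to 26.1%), against 16 of the 416 closest to protein-coding genes (3.85%, 2.21 to 6.17%) and 4.39% of all peaks, and these intervals overlap. They stood before E230029C05Rik, 1700094M24Rik, Gm14207 and A830052D11Rik, of which none had a start peak.

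By chromosome, upstream peaks made up 7.81% of the peaks of chromosome 7 (47 of 602, 5.79 to 10.2%), against 5.40% of the whole list. The share was 7.32% on chromosome 15 (4.84 to 10.5%), 6.58% on chromosome 6 and 6.40% on chromosome 14. On chromosome 11, with as many upstream peaks as chromosome 7, it was 5.90% (47 of 797, 4.36 to 7.77%), near that of the list. The lowest share was on chromosome X, with 1 of 92 (1.09%, 0.0275 to 5.91%). That peak lay 7705 bp before a start of Bcor, a gene of the BCL6 corepressor, inside a longer transcript of the same gene (59 tags, fold 3.93).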

How the data were processed

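One deposited list of peaks from the Sox4 bioChIP library was analysed. Bowtie 0.12.8, MACS 1.4.2 and the mm9 build are named in the submitters' processing notes, without parameters, with the control for calling not given in the sources used here. Per the file headers, the list holds a tag count per peak, not normalized, and a fold, a linear ratio to the expected background. The deposited score was taken to be minus 10 log10 of the p-value, since the lowest is 50.03, near the MACS threshold of 1e-05. Library depth is unknown, so peaks were compared within the list only, and wider peaks collect more tags. Positions are printed as deposited.

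Upstream peaks were taken by the deposited class. Closest transcripts were matched to the RefSeq gene table (GRCm38.p6), 466 by accession and 5 by symbol, for names and gene class only. Medians, counts, exact Clopper-Pearson intervals for shares and exact Poisson intervals for tags (95%) were computed in Python 3.11.15 with scipy 1.17.1 and cover counting error only. The steps were tested on simulated data.

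The members and the 12 gene lists were chosen with earlier results of these data known. Named genes were the 10 highest upstream peaks by score and by fold, the 5 genes with most peaks, up to 4 members per list, the 2 nearest and 2 farthest peaks, and the 5 genes with the strongest pair or the largest excess over the start peak. Others were chosen after their values were seen. Some genes that the rule names are not reported here.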

Additional observations from a re-analysis of the deposited data

How the results depend on the processing

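With 1 peak per closest gene, and with only peaks that lie upstream of every listed start and inside no gene, the number of peaks, the median score, fold and distance and both shares stayed within 1.5 times (the number) or within the 95% interval of the value reported. With only peaks of score 100 or more, 176 upstream peaks remained in the count, with a median score of 146, a median fold of 5.33 and a share of 11.4% at fold 10 or more. The share whose closest gene had a start peak was then 28.4%, and 8 list genes in place of 19 had an upstream peak. With only peaks of fold 5 or more there were 136, with a median score of 139, a median fold of 6.01, a share of 14.7% at fold 10 or more and 19.9% with a start peak. These filters act on the start peaks too. For closest protein-coding genes, the share with a start peak was 29.8% and 20.3% under the same filters, in place of 53.2%, and stayed above the share of all protein-coding genes (19.8% and 11.9%). This comparison was chosen after seeing the data. With only peaks 10 kb or more from the start there were 277, at a median distance of 15839 bp. The share with a start peak was 44.4% with a start window of 1 kb and 63.7% when any listed gene could supply it. No paired analysis was possible because each group has 1 library. A tag count near the median, 59, has a Poisson interval of 44.9 to 76.1. That is the error of a single count. A difference between peaks carries the error of each count, so this range does not give the smallest detectable difference.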

Other observations

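The balance of peaks before and past genes depended on the peaks counted. Over upstream, downstream, intronic, exonic and gene-end peaks, 502 lay 5 to 25 kb only before a start and 424 only past an end (54.2%, 50.9 to 57.5%, for the first). Among upstream and downstream peaks that lay inside no listed gene, 257 lay 5 to 25 kb before a start and past no gene's end by that distance, and 162 lay 5 to 25 kb past an end and before no start (61.3% against 38.7% of those on 1 side only, exact 95% interval of the first 56.5 to 66.0%). A further 129 lay on both sides, between genes. The peaks of a region share this 1 library and neighbouring genes, so the shares describe the list.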
